A study of Sus scrofa with 15 samples.

Results

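Genes of the skeletal muscle contractile apparatus and its calcium supply were followed through 15 RNA-seq libraries of backfat, the subcutaneous fat over the loin, of Iberian pigs. The list held 60 textbook genes of the thin filament, the thick filament, the Z-disc, calcium handling, energy supply and muscle protein turnover, and it was joined to the files by gene symbol and Ensembl identifier. Of the 60 symbols, 47 were matched among the 30477 genes of the files, and 46 of these were among the 14918 genes expressed well enough to be tested. The remaining 13 symbols were left out of the list (MYLPF, described separately under its current symbol MYL11, MYH1, MYH2, MYH4, MYH7, MYOZ2, TTN, LDB3, MB, CASQ2, RYR1, LMOD3 and KLHL41). TNNI2, the fast troponin I, was matched but listed at 0 counts in all 15 libraries, so it was left out of the tests. The diets were a control compound feed (C), a compound feed with dry olive pulp (DOP), and a compound feed with a silage of wet crude olive cake offered freely (WCOC), and each diet had 5 pigs. The compound feeds were rationed, the diets were given through the growing period, and the biopsies were taken at its end, at about a year of age. Each diet occupied 1 pen, so diet and pen cannot be told apart. The pigs sequenced were those with enough RNA of good quality, and each library is 1 pig.

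In the sarcomere, the repeating unit of striated muscle, thick filaments of myosin pull on thin filaments of actin that are anchored at the Z-disc. Calcium released from the sarcoplasmic reticulum binds troponin C, which moves tropomyosin aside and lets myosin bind, and a calcium pump then returns the calcium to the store. Fast and slow muscle fibres use different genes for many of these proteins, so the ratio of a fast to a slow gene describes the fibre make-up of a sample, and most of these genes are not known as genes of fat cells.

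Levels are given as CPM, the gene's count scaled to library size after TMM correction, and fold changes as log2 of the ratio between diets (log2FC). A library held 22373715 to 34745218 gene counts, with TMM factors of 0.857 (DOP 5) to 1.21. The tissue label fitted its markers, since adiponectin (ADIPOQ) lay between 3087 and 8028 CPM in every library. All DOP libraries and C 5 came from a flow cell, named B here, and the remaining 4 C libraries and all WCOC libraries from another, named A. DOP and flow cell B therefore cannot be told apart beyond a single control library.

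Transcripts of the listed members were found in every library, but at summed levels that differed 767-fold. Summed over the 47 matched members, the level was 3517 CPM in C 1, 150 CPM in C 2, 6749 CPM in C 3, 482 CPM in C 4 and 217 CPM in C 5. In DOP it was 135, 18916, 470, 10597 and 77229 CPM in replicates 1 to 5. The WCOC libraries held 473, 268, 101, 1274 and 184 CPM. Thus 6 libraries exceeded 1000 CPM, namely C 1, C 3, DOP 2, DOP 4, DOP 5 and WCOC 4, and the other 9 lay between 101 and 482 CPM. The high libraries came from all 3 diets (2 C, 3 DOP and 1 WCOC), the low libraries came from all 3 diets too, and the ranges of the diets overlapped. C libraries averaged 2223 ± 2895 CPM, DOP libraries 21470 ± 32132 CPM and WCOC libraries 460 ± 476 CPM (SD, n = 5 each). DOP 5 alone held 64.0% of the sum over all 15 libraries, and without it the DOP mean was 7530 CPM. The members took 6.61% of the gene counts of DOP 5 and 0.0108% of those of WCOC 3, the lowest library. In bulk tissue, fewer muscle cells and less muscle RNA per cell cannot be told apart.

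**Figure D1:**
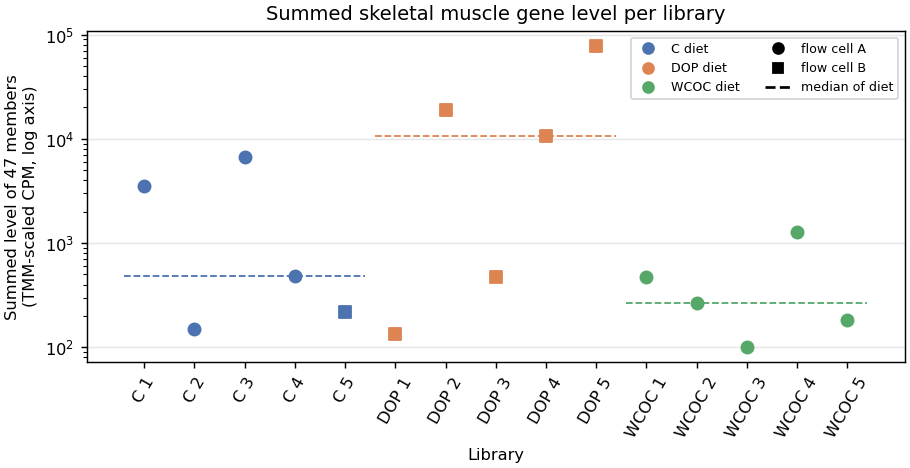
Summed level of the 47 matched members in each of the 15 libraries, in TMM-scaled CPM on a log axis, with 1 point per library coloured by diet. The 3 highest libraries are DOP 5, DOP 2 and DOP 4, while DOP 1 at 135 CPM sits among the lowest, and C 3 at 6749 CPM stands above every WCOC library.

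Among the matched members, those of the thin filament carried most of the summed level. None of the listed myosin heavy chains was matched, nor was titin (TTN), so the thick filament and Z-disc sums lack them. A gene without a symbol, outside the list, followed the members (r = 0.98) and was at 26738 CPM in DOP 5. Here and below, rankings cover the matched members only. Skeletal alpha-actin (ACTA1, chromosome 14, 60412651 to 60415687 on Sscrofa11.1), the main actin of muscle fibres, was at 1357, 14.9, 1883, 108 and 37.5 CPM in C 1 to C 5. It reached 12.6, 6543, 112, 3238 and 23994 CPM in DOP 1 to DOP 5, and 116, 48.3, 5.75, 377 and 26.1 CPM in WCOC 1 to WCOC 5. The lowest of these values rests on 176 counts, so counting error was small beside the differences between pigs, and the 3 diets overlapped. ACTA1 is nearly identical to other actin genes over its coding sequence, and how shared reads were counted is not given in the sources used here. In DOP 5, ACTA1 made up 31.1% of the summed member level, and per kilobase of exon it was the highest of all members there, with 12715 CPM per kb. Nebulin (NEB), the ruler protein along the thin filament, ran from 1.5 CPM in WCOC 3 to 5248 CPM in DOP 5. Beta-tropomyosin (TPM2), which covers the myosin sites on actin, ranged only from 40.3 to 2805 CPM, and its 9 lowest libraries lay between 40.3 and 63.9 CPM. Troponin C of fast fibres (TNNC2), the calcium sensor, was at 65.5, 3.67, 236, 17.0 and 4.04 CPM in C 1 to C 5, and at 1.21, 402, 13.1, 352 and 3059 CPM in DOP 1 to DOP 5. In WCOC 1 to WCOC 5 its values were 11.09, 6.21, 1.01, 43.8 and 3.25 CPM. The order of the libraries was nearly that of ACTA1, with the same 6 libraries at the top. Leiomodin 2 (LMOD2), which nucleates thin filaments, and KLHL40, which stabilises thin filament proteins, were scarcer and peaked at 122 CPM (DOP 2) and 60.4 CPM (DOP 5).

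Creatine kinase M (CKM), which regenerates ATP at the myofibril, followed actin. Its levels were 352, 6.41, 593, 42.2 and 11.6 CPM in C, 4.94, 1670, 37.7, 999.98 and 8637 CPM in DOP, and 37.9, 18.8, 2.77, 131 and 8.47 CPM in WCOC, for replicates 1 to 5. DOP 5 was 5.17-fold above DOP 2, and 3 of the 5 DOP libraries lay above every WCOC library while the other 2 lay within the WCOC range. The mitochondrial creatine kinase CKMT2 reached 361 CPM in DOP 5 and was between 0.763 and 66.2 CPM elsewhere.

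Among the thick filament members, the fast essential light chain MYL1 was the most abundant by mean level. It was at 121, 2.95, 365, 24.7 and 5.43 CPM in C 1 to C 5, at 2.29, 632, 19.5, 569 and 4661 CPM in DOP 1 to DOP 5, and at 14.8, 8.69, 1.11, 61.2 and 4.45 CPM in WCOC 1 to WCOC 5. These values put the same 6 libraries on top as the summed level did, and the diets overlapped. Myosin-binding protein C, which braces the myosin heads, was represented by the fast gene MYBPC2 and the slow gene MYBPC1, which reached 3147 and 1037 CPM in DOP 5. Myosin-binding protein H (MYBPH), a relative of these proteins, was at 2.16, 1.03, 14.4, 2.57 and 0.530 CPM in C 1 to C 5 and at 0.884, 35.8, 1.36, 31.9 and 225 CPM in DOP 1 to DOP 5. In the WCOC libraries MYBPH lay between 0.392 and 1.34 CPM, below C 1, C 3 and C 4. Part of its span is shared with ADORA1 on the opposite strand. MYOM1 and MYOM2, the myomesins that link thick filaments at the M-band, peaked at 368 and 751 CPM, and UNC45B and SMYD1, which help fold and assemble myosin, at 120 and 180 CPM, in each case in DOP 5.

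At the Z-disc the leading member was alpha-actinin 3 (ACTN3), the fast fibre cross-linker of actin. Its levels were 52.3, 1.88, 187, 13.8 and 3.71 CPM in C, 1.29, 263, 16.9, 296 and 2739 CPM in DOP, and 10.7, 5.2, 0.979, 40.7 and 2.30 CPM in WCOC, in replicate order. ACTN2, the alpha-actinin of all fibres, XIRP2, an actin-binding protein, and MYOZ1, the fast calsarcin, peaked at 639, 1040 and 1003 CPM in DOP 5. A group of stress-responsive and slow-fibre members departed from this order. CSRP3, the muscle LIM protein, was at 166 CPM in DOP 2 and at 5.40 CPM in DOP 5, the next highest being C 3 at 11.12 CPM. ANKRD1 and ANKRD2, ankyrin-repeat proteins that bind titin, and XIRP1 were also highest in DOP 2, at 46.8, 29.4 and 107 CPM, against 12.2, 9.69 and 59.4 CPM in DOP 5.

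Calcium handling members were led by ATP2A1, the calcium pump of fast fibres. It was at 127, 3.29, 639, 33.9 and 7.55 CPM in C 1 to C 5, at 2.33, 618, 35, 876 and 6183 CPM in DOP 1 to DOP 5, and at 20.7, 8.80, 1.01, 99.99 and 6.11 CPM in WCOC 1 to WCOC 5. Its highest value was 6109-fold its lowest, the widest span of the 40 members that had counts in every library. CASQ1, the calcium store protein, and sarcolipin (SLN), which regulates the pump, peaked in DOP 5 at 1702 and 795 CPM, and CACNA1S, the voltage sensor, at 400 CPM. Parvalbumin (PVALB), a calcium buffer of the fastest fibres, was at 87.6 CPM in DOP 5 but at 0.528 CPM in DOP 2, a 166-fold gap where the median gap of the members was 3.45-fold. The next highest PVALB levels were 9.75 CPM in C 3 and 5.90 CPM in DOP 4, and the other 12 libraries were at or below 1.02 CPM. PVALB shares its span with NCF4 on the opposite strand, and whether the counts used strand is not given in the sources used here.

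Of the ubiquitin ligases, TRIM63 (MuRF1), which marks myofibril proteins for breakdown, was at 1.37, 0.983, 5.10, 0.701 and 2.22 CPM in C 1 to C 5 and at 0.522, 16.6, 1.39, 11.9 and 45.1 CPM in DOP 1 to DOP 5. In WCOC 1 to WCOC 5 it was at 0.785, 0.749, 0.196, 1.24 and 0.354 CPM. FBXO32 (atrogin-1) was the member least like the others, with 16, 9.40, 10.9, 6.66 and 10.7 CPM in C, 9.0, 21.4, 25.2, 26.9 and 40.3 CPM in DOP and 25.7, 14.5, 12, 6.83 and 7.91 CPM in WCOC. It varied only 6.06-fold, and DOP 3 and WCOC 1, which were low for other members, held more of it than any control. The muscle transcription factors MYF6 and MYOD1 peaked in DOP 5 at 19.1 and 25.2 CPM and were at 0 CPM in 3 libraries each.

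**Figure D2:**
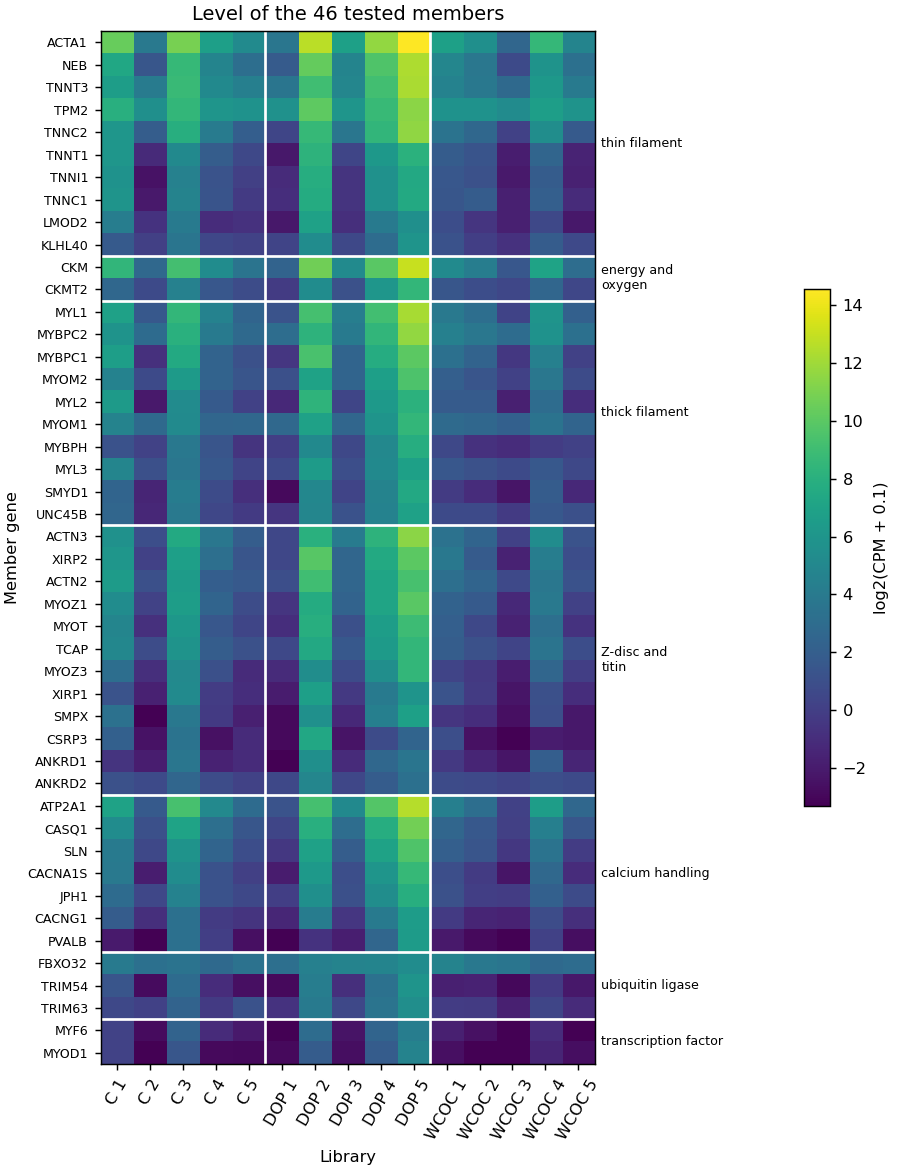
Level of the 46 tested members (rows) in the 15 libraries (columns), as log2 of CPM plus 0.1, on a colour scale. Whole columns are bright or dark together, DOP 5 being highest for 37 members and DOP 2 for the other 9, and WCOC 3 lowest for 27.

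The members thus rose and fell together from pig to pig. Their median SD across the 15 libraries was 3.03 on the log2 scale against 0.27 for all tested genes, and 40 of the 46 were among the 149 tested genes with the largest SD. Within diets the median SD of the members was widest in DOP (3.90), followed by C (2.58) and WCOC (1.45). Over the 15 libraries, 39 members correlated at r = 0.95 or more with the mean log2 level of the other members. This is a description across libraries that share depth, batch and diet, and it carries no test. FBXO32 (r = 0.60), CSRP3 (r = 0.83), PVALB (r = 0.85) and ANKRD2 (r = 0.86) were the least correlated. Diet accounted for 27.5% of the variance of the log2 summed level, and for a median of 25.6% over the members (13.9% to 43.0%), where the median over all tested genes was 25.9%. The remainder of the variance lay between pigs of the same diet.

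Promoter sequences of 4 members are given as examples of starts of genes whose levels moved together: a fast and slow light chain pair (MYL1 and MYL3), a member highest in DOP 2 (XIRP1) and the member with the lowest p between WCOC and DOP (TRIM63). Each is the 250 bases before the RefSeq start on Sscrofa11.1, minus strand of the chromosome, written 5′ to 3′ as transcribed, and capitals mark motif matches. The windows are chr15:113051316-113051565, chr13:29735617-29735866, chr13:23876851-23877100 and chr6:83507472-83507721.
MYL1: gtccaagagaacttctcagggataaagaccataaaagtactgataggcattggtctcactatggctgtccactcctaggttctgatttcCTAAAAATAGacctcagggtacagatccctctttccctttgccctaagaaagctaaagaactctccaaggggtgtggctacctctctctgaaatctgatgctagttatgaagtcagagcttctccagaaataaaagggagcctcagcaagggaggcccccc
MYL3: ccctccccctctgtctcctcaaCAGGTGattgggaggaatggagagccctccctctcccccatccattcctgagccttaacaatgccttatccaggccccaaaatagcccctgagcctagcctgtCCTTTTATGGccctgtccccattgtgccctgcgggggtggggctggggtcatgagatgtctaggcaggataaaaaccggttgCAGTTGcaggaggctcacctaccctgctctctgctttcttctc
XIRP1: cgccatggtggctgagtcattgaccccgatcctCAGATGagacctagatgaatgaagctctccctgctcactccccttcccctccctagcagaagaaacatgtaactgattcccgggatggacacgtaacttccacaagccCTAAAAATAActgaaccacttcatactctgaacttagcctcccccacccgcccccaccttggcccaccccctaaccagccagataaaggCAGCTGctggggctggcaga
TRIM63: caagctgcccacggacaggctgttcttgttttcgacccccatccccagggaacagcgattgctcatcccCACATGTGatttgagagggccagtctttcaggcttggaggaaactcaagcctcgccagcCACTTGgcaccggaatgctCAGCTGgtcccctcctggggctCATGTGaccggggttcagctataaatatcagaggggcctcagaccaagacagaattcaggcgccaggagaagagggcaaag

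Both strands were searched for the E-box (CANNTG), the motif of MYOD1 and its relatives, for the MEF2 site and for the CArG box of serum response factor. MYL1 had 1 MEF2 site at position -161 from the start and no E-box, MYL3 had 2 E-boxes and 1 CArG box, XIRP1 had 2 E-boxes and 1 MEF2 site, and TRIM63 had 5 E-boxes, of which 2 overlap. Of the 45 members with a RefSeq window, 71.1% had an E-box, against 61.5% of 19527 genes, and 46.7% had 2 or more, against 27.9%. A MEF2 site was present in 13.3% of the members and 2.46% of all genes, and a CArG box in 6.67% and 1.32%. A match is a description of these letters and no evidence of binding.

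Fast isoforms exceeded slow isoforms in most libraries, but to degrees that differed between pigs. Of the 9 isoform pairs listed, 4 could be compared, and per kilobase of exon the fast gene was above the slow gene in 14 of 15 libraries for troponin T (TNNT3/TNNT1), 15 for troponin C (TNNC2/TNNC1), 14 for the essential light chain (MYL1/MYL3) and 13 for myosin-binding protein C (MYBPC2/MYBPC1). Among the 5 libraries with the highest summed level, the troponin C ratio was 1.13 in C 1, 9.48 in C 3, 2.00 in DOP 2, 7.03 in DOP 4 and 17.4 in DOP 5. The light chain ratio had the same order, with 3.75, 23.9, 6.16, 13.9 and 34.7. For troponin T the ratios were 0.881, 7.57, 1.13, 4.79 and 11.2. For MYBPC2/MYBPC1 they were 0.633, 1.60, 0.484, 1.88 and 3.43. C 1 and DOP 2 were thus the least fast of these 5 libraries in all 4 pairs and DOP 5 the most fast, so that high and low ratios occurred within both diets. In low libraries a ratio rests on few counts of the slow gene, as for TNNT1 at 0.121 CPM in DOP 1, whose ratio of 34.5 was the highest of that pair. TNNT3 was at 12.3 CPM in that library, beside 12.6 CPM for ACTA1 and 1.21 CPM for TNNC2. The light chain ratio of DOP 1 was 1.33, below all 5 libraries named above. Ratios of low libraries therefore do not describe fibre make-up clearly, and the counts of libraries given above include them.

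The contrast between DOP 5 and DOP 2 was clearest gene by gene. The 8 fast fibre members TNNT3, TNNC2, MYL1, MYBPC2, MYOZ1, CASQ1, ACTN3 and ATP2A1 were 4.82-fold to 10.7-fold higher in DOP 5 (median 8.38). The 5 slow fibre members TNNT1, TNNI1, TNNC1, MYL2 and MYL3 were at 0.817 to 1.31 of their DOP 2 level (median 0.919). The slow gene MYBPC1 was not in this set and lay above its range, at 1.51 of its DOP 2 level. Slow troponin T, for example, was at 295 CPM in DOP 2 and 272 CPM in DOP 5, whereas fast troponin T was at 542 and 4962 CPM. The same held for these sets between 2 control pigs. Fast members were 2.41-fold to 5.04-fold higher in C 3 than in C 1, and the 5 slow members were at 0.420 to 0.525 of their C 1 level. MYBPC1 went the other way from these slow members, at 1.75 of its C 1 level in C 3. Troponin C of slow fibres (TNNC1) was at 59.6 and 25.6 CPM in C 1 and C 3, at 208 and 182 CPM in DOP 2 and DOP 5, and at 0.128 to 51.6 CPM in the other libraries. These are single libraries, so the contrasts have no replicate.

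A further pair could be followed under the current symbol of its fast gene. MYL11, the fast regulatory light chain listed as MYLPF, was chosen after its values were seen, and it was at 68.0 CPM in C 1, 251 CPM in C 3, 495 CPM in DOP 2, 399 CPM in DOP 4 and 3264 CPM in DOP 5. Its ratio to the slow light chain MYL2 was 0.797 in C 1, 6.43 in C 3, 1.56 in DOP 2, 5.10 in DOP 4 and 11.2 in DOP 5, without correction for length. MYH6, also chosen after its values were seen, lies beside the nearly identical slow myosin MYH7, so its counts are uncertain. It was highest in DOP 2 (2033 CPM), ahead of DOP 5 (1529 CPM), DOP 4 (542 CPM), C 1 (481 CPM) and C 3 (228 CPM), the same order as for slow troponin T.

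Whether the diet labels went with the fast to slow ratio was tested next. In exact two-sided permutation tests of the mean log2 ratio (CPM plus 0.1, n = 5 against 5, smallest possible p = 0.00794), none of the 12 differences was called, with p between 0.294 and 0.881 and every Benjamini-Hochberg adjusted p at 0.881. None had p under 0.05. A single test at the smallest possible p would not pass the adjustment over 12 tests, so a test could be called only alongside others. The tests include the 9 libraries of low summed level, where a ratio does not describe fibre make-up clearly. The widest difference was that of MYL1/MYL3, at 1.99 ± 1.71 in WCOC and 3.22 ± 1.73 in DOP (SD, log2), and the values of the diets overlapped in every test.

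**Figure D3:**
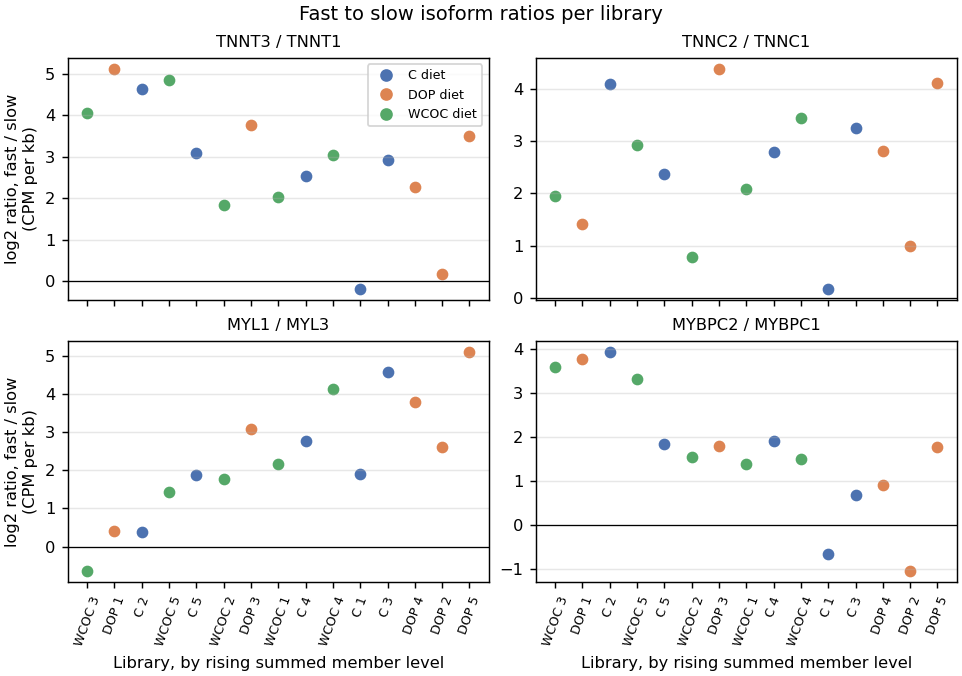
Log2 ratio of the fast to the slow isoform per kilobase in each library, 1 panel per pair, libraries ordered from left to right by summed member level and coloured by diet, with a line at equal levels. Among the high libraries on the right, C 1 and DOP 2 lie lowest and DOP 5 highest, at log2 ratios that correspond to 1.13, 2.00 and 17.4 for TNNC2/TNNC1.

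The first diet question was whether muscle transcripts were higher under dry olive pulp. In DOP against C none of the 46 members was called by edgeR's quasi-likelihood test (adjusted p under 0.05 and log2FC of at least 0.58 in size), where 0.764% of all tested genes were called, 0.215% in the upward direction. All 46 log2FC values were positive, with a median of 3.07 (1.20 to 3.81) beside 0.01 over all genes, of which 52.2% were positive. An unadjusted p under 0.05 was reached by 26 members, where 9.6% of all tested genes reached it upward. The members follow the same libraries, so these counts do not stand for independent genes. MYBPH had the largest log2FC, at 3.81 ± 1.22 (SE, adjusted p = 0.141 by edgeR), followed among the lowest p-values by TRIM63 at 2.85 ± 0.92 (adjusted p = 0.143), FBXO32 at 1.20 ± 0.39 (adjusted p = 0.147), CKMT2 at 3.75 ± 1.26 (adjusted p = 0.152) and MYOM1 at 2.78 ± 0.94 (adjusted p = 0.155). The study lists MYBPH, CKMT2, JPH1, TRIM63 and KLHL40 among its DOP genes from these same samples, so their low p-values are not independent evidence. JPH1, which ties the reticulum to the surface membrane, had log2FC 3.17 ± 1.19 (edgeR adjusted p = 0.190) and KLHL40 2.57 ± 1.03 (edgeR adjusted p = 0.216). ACTA1, the most abundant member, had log2FC 3.32 ± 1.67 (edgeR adjusted p = 0.321). No member's values separated DOP from C, where those of 3.47% of all genes did. DESeq2 called 5 members, MYBPH, MYOM1, TRIM63, FBXO32 and CKMT2, beside 1.28% of the genes it tested in that direction. Leaving out any single library brought no call by edgeR, and flow cell B held too few controls for a comparison within it.

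In WCOC against C the members leaned downward and none was called, where 6.25% of all tested genes were called, 3.93% in the downward direction. The log2FC was negative for 45 of 46 members, with a median of -2.38 (-3.32 to 0.32), where 50.6% of all genes were positive, and FBXO32 was the exception. MYF6, with a log2FC of -3.32 ± 1.55 (edgeR adjusted p = 0.189), was the only member with an unadjusted p under 0.05, where 13.1% of all genes had it downward. DESeq2 also called none of them, beside 4.93% of its genes called lower, and gave 12 members an unadjusted p under 0.05. ACTA1 had log2FC -2.57 ± 1.62 (edgeR adjusted p = 0.331). With flow cell A alone, 32 of 41 members had p under 0.05 and none was called by edgeR, the lowest adjusted p being 0.0606. Over all genes, 486 of 14698 were called in either direction with flow cell A alone. The shares of all genes at an unadjusted p under 0.05 were not counted for DESeq2 or for flow cell A alone. No member separated the groups, where 7.62% of genes did. In the same edgeR comparison all 8 macrophage genes had a negative log2FC and an unadjusted p under 0.05, with 3 of them called, and all 7 fibroblast genes had a negative log2FC, with 5 at an unadjusted p under 0.05 and 3 called. Their part in the members' lean was not tested. Both olive diets were set against the same 5 controls.

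In WCOC against DOP, 35 of the 46 members were called, each lower in WCOC, where 5.11% of all tested genes were called lower and 7.76% in either direction. The called members were 8 of 10 in the thin filament (TNNT3, TNNC2, TNNT1, TNNI1, TPM2, NEB, LMOD2 and KLHL40), 8 of 10 in the thick filament (MYL1, MYL3, MYBPC2, MYBPH, MYOM1, MYOM2, UNC45B and SMYD1) and 9 of 12 at the Z-disc (ACTN2, ACTN3, MYOZ1, MYOZ3, TCAP, MYOT, XIRP2, SMPX and ANKRD2). To these came 5 of 7 calcium handling members (CASQ1, CACNA1S, CACNG1, SLN and JPH1), CKMT2, the ubiquitin ligases TRIM54 and TRIM63, and both transcription factors, MYF6 and MYOD1. The median log2FC was -5.62 (-6.31 to -0.88), every member was negative where 50.1% of all genes were positive, and all 46 had an unadjusted p under 0.05 where 15.4% of all genes had it downward. The lowest p-values were those of TRIM63, with log2FC -4.50 ± 1.01 (edgeR adjusted p = 0.0136), MYBPH, with -6.18 ± 1.41 (adjusted p = 0.0143), MYOM1, with -4.05 ± 1.00 (adjusted p = 0.0205), and TPM2 and MYL3, with -3.84 ± 0.99 and -4.51 ± 1.16 (adjusted p = 0.0243 each). In the same edgeR test ACTA1 (-5.89 ± 1.88, adjusted p = 0.0532), CKM (-5.83 ± 1.84, adjusted p = 0.0504) and ATP2A1 (-5.82 ± 1.94, adjusted p = 0.0620) fell short of the limit. No member's DOP and WCOC values were fully apart, where 8.9% of genes were, and in DOP 1 every member was at or below the highest WCOC library. The test of any diet difference called 25 members, beside 14.8% of all tested genes.

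The count of 35 in WCOC against DOP changed with single libraries left out, and so did that over all tested genes (1158 in either direction). Without DOP 5 it was 2 (699 over all genes), without DOP 2 it was 11 (731) and without DOP 4 it was 15 (838). Without WCOC 1, 2, 3, 4 or 5 it was 2, 7, 3, 14 or 3 (639, 1066, 783, 700 or 772 over all genes). Without DOP 1 or DOP 3, the DOP libraries poor in muscle transcripts, it was 44 or 43 (1271 or 1291 over all genes). limma-voom called none of the members (6 with unadjusted p under 0.05), beside 822 of 14918 genes called in either direction. With flow cell as a covariate none was called either (35 with unadjusted p under 0.05), beside 1 of 14918 genes. In that fit DOP and flow cell B were told apart only through C 5. DESeq2 called 43 members, beside 5.92% of its genes called lower.

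**Figure D4:**
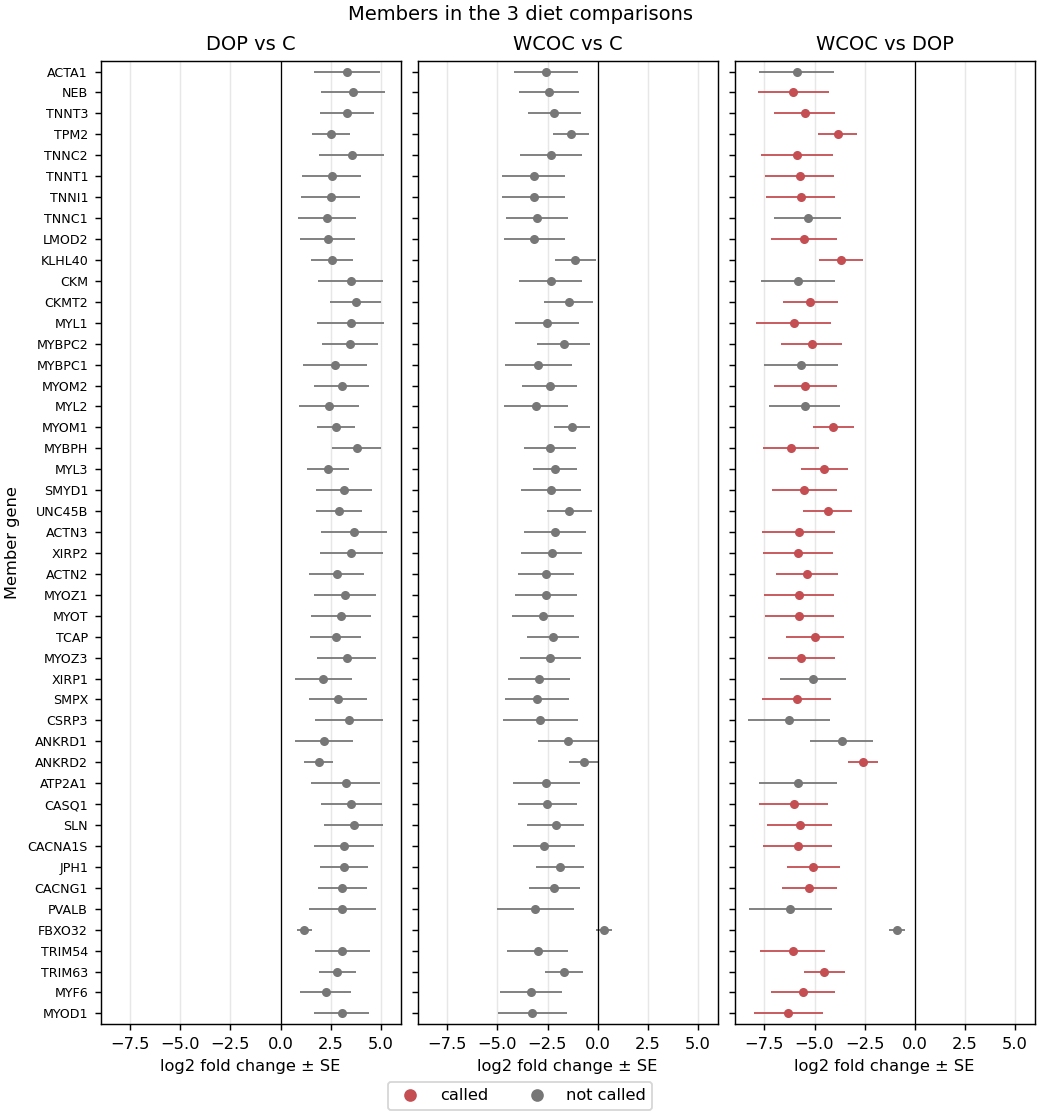
Log2 fold change with its SE for the 46 tested members in DOP against C, WCOC against C and WCOC against DOP, on 1 shared axis, called members in red. All members lie right of 0 in the first panel and left of 0 in the last, 45 of 46 lie left of 0 in the second, and the 35 red points are all in the last panel.

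Muscle genes outside the list went with the members. Of 38 further muscle genes, 31 were matched and 28 tested, and in DOP against C none was called by edgeR while 23 had an unadjusted p under 0.05 (9.6% of all tested genes upward), at a median log2FC of 2.48. DESeq2 called 4 of them, beside 507 genes called in either direction over all genes. In WCOC against DOP 19 of the 28 were called lower, beside 5.11% of all tested genes, among them the glycolytic enolase ENO3 (log2FC -5.34 ± 1.51, edgeR adjusted p = 0.0342), the glycogen phosphorylase PYGM (-2.68 ± 0.75, adjusted p = 0.0337), TRDN, a partner of the calcium release channel (-5.56 ± 1.67, adjusted p = 0.0417), and desmin (DES, -5.0 ± 1.51, adjusted p = 0.0427). ENO3 ran from 5.86 CPM in DOP 1 to 3283 CPM in DOP 5, whereas PYGM was at 163 to 202 CPM in its 9 lowest libraries and at 4691 CPM in DOP 5. Satellite cell and myoblast genes were scarce, with MYOG, CDH15 and MYH8 at 18.2, 26.4 and 41.3 CPM in DOP 5 and called lower in WCOC than in DOP, and PAX7 at most 7.95 CPM. Outside the members, 86 of 14872 genes correlated with their mean log2 level at r = 0.95 or more over the 15 libraries, of which 66 have a symbol, and JSRP1, APOBEC2 and TRDN led those named.

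Markers of the other cells a biopsy could hold showed other patterns in part. Of 8 heart genes, 6 were matched, MYH6 among them. Their summed level followed the members (r = 0.97) and was 2034 CPM in DOP 2, of which MYH6 held 2033 CPM. The other matched heart genes were scarce. NPPB, a natriuretic peptide of the heart, was at 0 in every library, TNNI3 was at or below 0.0327 CPM, cardiac troponin T (TNNT2) lay between 0.156 and 0.851 CPM, MYBPC3 between 0.113 and 1.92 CPM and MYL4 at or below 0.174 CPM. Smooth muscle actin (ACTA2) lay between 54.5 and 131 CPM and smooth muscle myosin (MYH11) between 37.9 and 119 CPM, neither being highest in DOP 5, whereas DES, a marker of smooth muscle that skeletal fibres also use, was. The summed smooth muscle list had r = 0.79 with the members. It was highest in DOP 5, at 2440 CPM, of which DES held 1490 CPM. The summed level of 10 adipocyte genes lay between 17089 and 26242 CPM, with r = -0.05 against the members. Leptin (LEP), the satiety hormone of fat, was at 174 CPM in DOP 5, its lowest library, and at 909 CPM in WCOC 2, its highest, with r = -0.75 over 15 libraries that share diet and scaling. Macrophage genes (8 of 9 matched) summed to 215 to 597 CPM in C, 169 to 425 CPM in DOP and 108 to 302 CPM in WCOC. Fibroblast genes (7 of 7 matched) summed to 23068 to 34749, 19805 to 31011 and 14565 to 25348 CPM in the same order. In WCOC against DOP both lists had a negative log2FC for each of their genes, with 1 of 8 and 2 of 7 called, where 5.11% of all tested genes were called lower. In WCOC against C 1 of 10 adipocyte genes and 2 of 6 endothelial genes were called higher, where 347 of all 14918 tested genes were called higher. Endothelial genes summed to 862 to 1526 CPM, and keratin and desmosome genes of the epidermis were highest in WCOC 5 and WCOC 2, at 127 and 65.7 CPM, where members were low. The part of any of these in the diet comparisons was not tested.

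**Figure D5:**
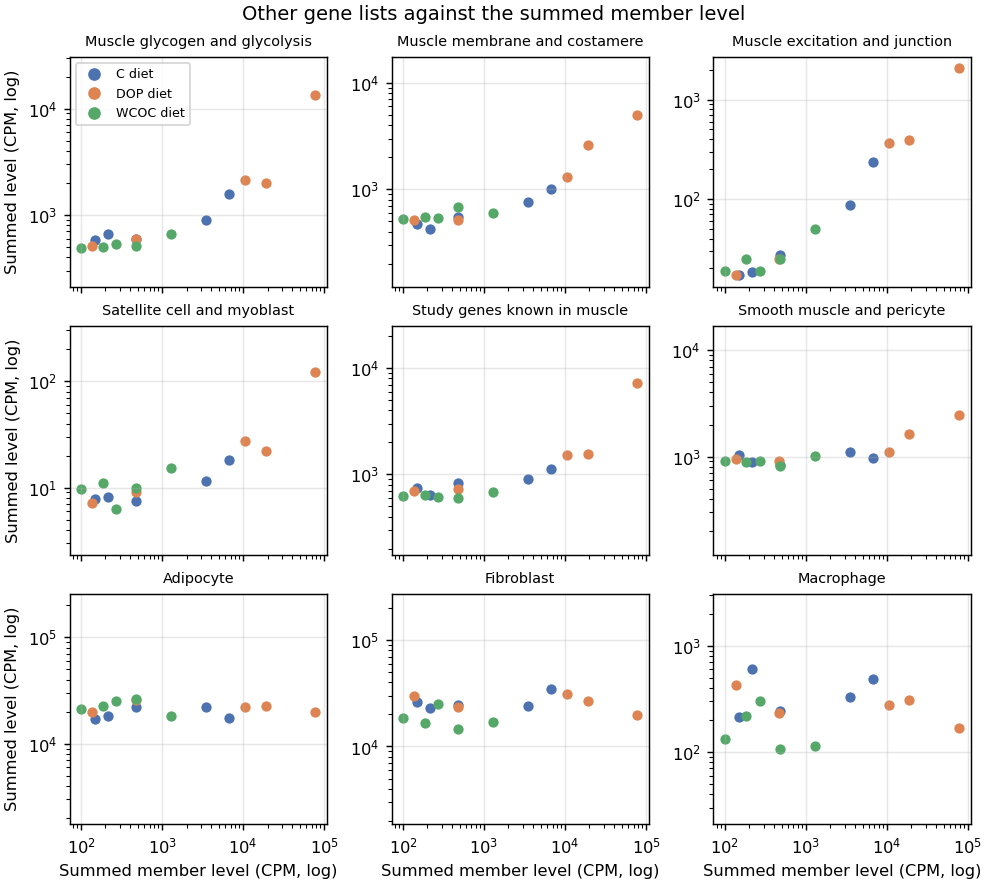
Summed level of other gene lists (vertical axes) against the summed member level (horizontal axis), both in CPM on log axes, 1 panel per list and 1 point per library coloured by diet. The lists of other muscle genes rise with the members, while the adipocyte list stays between 17089 and 26242 CPM.

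Some genes that the study names for DOP are themselves known in muscle, and their levels were set beside the members. Of 15 such genes, 14 had a positive log2FC in DOP against C, and HK2 was the exception, at -0.45 (r = -0.23 with the members). All 15 had an unadjusted p under 0.05 by edgeR, where 2623 of 14918 tested genes did. None was called by edgeR (lowest adjusted p = 0.0582, for PDK4), where 0.764% of all tested genes were. DESeq2 called 6, beside 1.28% of the genes it tested called higher. These 15 genes were chosen by the study on these samples, so their direction is not independent evidence. Their median log2FC was 1.94, and it was 0.56 with the log2 level of ACTA1 as a covariate, a fit added after the data were seen, in which 2 genes (MAPK12 and PDK4) had p under 0.05. PDK4, which holds back glucose oxidation, kept its log2FC, at 1.97 without and 1.93 with the covariate, and its levels were 15.2 to 34.7 CPM in C and 44.3 to 135 CPM in DOP without overlap. PRKAG3, the muscle subunit of AMPK, had log2FC 2.95 without and 0.13 with the covariate, and it was at 94.2 CPM in DOP 5 and 0.201 CPM in DOP 1. The values with the covariate are a description, since the mean ACTA1 level itself differed between the diets.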

How the data were processed

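Paired-end RNA-seq reads of backfat from 15 Iberian pigs, 5 per diet, were checked with FastQC, aligned to Sscrofa11.1 with HISAT2 and counted per gene with HTSeq, per the labels and the study's methods. The files deposited by the authors hold raw counts for 30477 Ensembl genes and 5 summary lines, which were left out. Tool versions, the annotation release, the strand option and the treatment of reads that match several genes are not given in the sources used here.

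The members and lists were chosen with earlier results of these data known. Genes were named by rule: members called in any comparison, the most abundant of each role, both genes of each isoform pair, the lowest p-values, and members the study lists for DOP. In R 4.3.3, edgeR 4.0.16 took the counts through filterByExpr (14918 genes left), TMM and its quasi-likelihood test, with diet as the factor and all 15 libraries together (checked on simulated counts). P-values were two-sided and adjusted by Benjamini-Hochberg over these genes, and called genes had an adjusted p under 0.05 with log2FC beyond 0.58 either way. They measure the spread between pigs of 1 pen per diet. Isoform ratios were compared by exact permutation tests (Python 3.11.15, scipy 1.17.1) on log2 of CPM plus 0.1, adjusted over 12 tests. Ratios needed at least 10 counts of each gene in all but 5 libraries. Depth was 22373715 to 34745218 gene counts per library. Alternatives were other size factors, filters, DESeq2 1.42.0, limma 3.58.1 voom, a robust fit, a replicate block, the flow cell, only the diets compared, and each library left out. Symbols were assigned by Ensembl identifier, whereas gene spans, exon lengths and promoters came from RefSeq on Sscrofa11.1. RefSeq holds a span for every unmatched member except MB. In that annotation MYBPH, PVALB, MYL2, KLHL40, ANKRD1, ATP2A1, TNNC2, MYL1, JPH1, MYOT, MYOM2 and MYF6 overlap another gene on the opposite strand, so reads of both could not be told apart without strand. MYBPC1 overlaps LOC110260787 on its own strand, where strand would not separate the reads.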

Additional observations from a re-analysis of the deposited data

Results flagged for a closer look

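Within each diet, the highest and the lowest library of the summed level, of 8 member levels and of the log2 ratios of 4 isoform pairs were compared with their nearest neighbour by Dixon's ratio, the gap divided by the whole range of the 5 libraries, and 9 of 39 sets were above the critical value of 0.71. At this value chance flags about 1 in 20 sets only where the values spread normally. All 9 flags were on linear levels, which are skewed, and none on a log2 ratio, so their chance rate is not known. The members also follow each other, so the 9 are not separate events. In DOP the library furthest from the rest was DOP 5, with a ratio of 0.756 for the summed level, 0.728 for ACTA1, 0.807 for CKM, 0.869 for TNNC2 and 0.844 for MYBPH. In C it was C 3, with 0.734 for TNNC2 and 0.853 for MYBPH. In WCOC it was WCOC 4, with 0.727 for CKM and 0.764 for TNNC2. On these linear levels the furthest library was always the highest of its diet.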

How the results depend on the processing

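Of 763 alternatives of single values, 697 kept direction and side of the threshold, 27 lost the call, 19 gained it, 19 turned and 1 moved. Where a value turned or a count moved, the cause was not tested. Members called in WCOC against DOP (35) were 21 with at least 10 counts in every library (25 members tested), 19 with only the diets compared, 13 with the robust fit, 0 with limma-voom and 0 with flow cell as a covariate, and 2 to 44 with a library left out. Over all tested genes, 1158 were called in either direction in the main test, and 941, 869, 1042, 822 and 1 in these settings, in the same order. With a library left out, 639 to 1291 genes were called. For any diet (25) the members called were 42 by DESeq2, 7 with the robust fit, 0 with limma-voom, 0 with flow cell, and 2 to 44 with a library left out. Over all genes, 2215 were called in the main test, and 3546, 2085, 1742 and 869 in the first 4 of these settings. In DOP against C (0), DESeq2 called 5 members and 4 other muscle genes, beside 507 genes called in either direction over all genes. In WCOC against C no alternative called a member. With flow cell as a covariate the median log2FC of the members was 6.78 in DOP against C and -9.72 in WCOC against DOP. With a replicate block, 0 members were called in WCOC against DOP (43 with unadjusted p under 0.05, lowest adjusted p = 0.0794 by edgeR) and 0 for any diet. Over all tested genes, 561 and 720 were called with this block. The replicate numbers did not pair the pigs, since the correlation of same-numbered libraries ran from -0.52 to 0.34 over 15 pairs, 3 of them above 0.1, and 0 libraries were closest to their own number in both other diets.

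FBXO32 in WCOC against C, which was not called, ranged from -0.057 to 0.50 with a library left out. So did the isoform ratios, none of which was called: TNNT3/TNNT1 from -0.33 to 1.06 (DOP against C), -0.13 to 1.07 (WCOC against C) and -0.50 to 0.73 (WCOC against DOP), TNNC2/TNNC1 from -0.38 to 0.65 (DOP against C) and -0.88 to 0.095 (WCOC against C), MYL1/MYL3 from -1.12 to 0.076 (WCOC against C) and MYBPC2/MYBPC1 from -0.68 to 0.52 (DOP against C). With a library left out the smallest possible p of a ratio test was larger, so a call was harder to reach than in the main test. With 1 CPM as the pseudocount, TNNT3/TNNT1 in WCOC against DOP was -0.13 and MYBPC2/MYBPC1 in DOP against C 0.00014. The median log2FC of the study's muscle genes moved to 0.56 with ACTA1 as a covariate. Depth limits ratios to the slow isoforms, as TNNC1, TNNI1 and TNNT1 were under 1 CPM in several libraries.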
